A study of Schizosaccharomyces pombe with 15 samples.

Results

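Of the 13003 start-site clusters listed for fission yeast (Schizosaccharomyces pombe), 1023 lay a short way downstream of a much stronger cluster on the same strand. They were chosen by position and strength alone: the nearest upstream cluster on the strand had its peak 50 to 600 bp away and a mean level, in the authors' list, at least 10 times higher. Each had an upstream partner of its own (1023 partners), and 1 of the 1023 was itself the partner of another. These pairs were a subset of 4464 neighbouring same-strand pairs whose peaks lay 50 to 600 bp apart, and the 3441 other pairs served for comparison. The members were spread over chromosome I (469), II (383) and III (171).

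Start sites had been mapped by CAGE (cap analysis of gene expression), in which tags from the capped 5′ ends of RNA are sequenced, in 15 libraries of wild-type strain h-S 972. There were 5 groups of 3 libraries from parallel liquid cultures. EMM cultures grew in defined minimal medium at 30 °C, and N_starved cultures were held for 16 h in EMM without ammonium chloride at 30 °C. YES cultures grew in rich yeast-extract medium at 30 °C, H2O2 cultures received 0.5 mM hydrogen peroxide for 15 min at 30 °C, and heat cultures were held at 39 °C for 15 min. The medium of both short stresses is named YES in one label and YEL in another, and both were compared with the 3 YES libraries, so the heat and H2O2 contrasts share their controls. Libraries held 9687729 to 21822930 tags in clusters. The weak downstream clusters took 0.173% to 0.249% of them and their partners 18.8% to 25.7%, and the median downstream cluster had 10 to 29 tags per library. A level in CPM below, where given by library or group, is tags per 1000000 of a library's total after TMM scaling. Mean levels over all libraries are those of the authors' list. The counts of clusters or members that reached 1 CPM used library totals without TMM scaling. The limit set by a count of 3 tags was 0.137 to 0.310 CPM before scaling, and it covers counting error only.

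RNA polymerase II in fission yeast usually starts at a purine that follows a pyrimidine, an arrangement called the pyrimidine-purine step of the initiator. A start inside a gene can give an RNA that lacks the first part of the leader or of the coding region, and then the first AUG that a scanning ribosome meets may differ from the annotated one. Capped tags that fall in the exons of strongly expressed genes are also known from mammals, where they have been called exon painting. CAGE counts RNA 5′ ends, so that fewer cells making an RNA and less RNA per cell cannot be told apart.

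The sequences at the peaks fell into distinct kinds, and examples of each are printed because the results below divide along them. Each is 30 bases in the direction of transcription, read from the RefSeq assembly ASM294v3, at positions of the authors' list, whose named build is ASM294v2, and the capitals mark the base before the peak and the peak base itself. The first 6 show downstream clusters with the pyrimidine-purine step, chosen because their downstream level rose in 1 of the contrasts described below.
mgr3 downstream (chrI:1612026-1612055, plus strand): agcaagctaatcgaattatCAgaaccgctt
vps26 downstream (chrI:2278808-2278837, minus strand): aaatgtttgaatttgagttCAagcatgttg
tfb1 downstream (chrI:3521824-3521853, minus strand): gcagttatgaagggacattTAagtaatgag
gcs1 downstream (chrI:684142-684171, plus strand): gcattgattatttcgaaagCAaaatagacg
sds22 downstream (chrI:2574262-2574291, minus strand): tagagcttattcagtctcgTAtacaaagca
prs5 downstream (chrII:1281033-1281062, minus strand): ttgcccctactgacagtttTAtactcgcac
The next 4 show the strongest downstream clusters with a G before the peak.
oga1 downstream (chrII:4284347-4284376, plus strand): agcaccacctctaggaagcGTgaccctaac
rps3 downstream (chrII:4238962-4238991, minus strand): tcgtgagctctctgaggagGGttactctgg
pgr1 downstream (chrII:1414787-1414816, plus strand): gttaggtagttttgactggGGaatgattaa
lat1 downstream (chrIII:263241-263270, plus strand): ctttgaacaacaggacgagGGctaccttgc
The last 4 are upstream partners of clusters in these sets.
mgr3 upstream (chrI:1611477-1611506, plus strand): ccttccatgctttctatgtTGacataaact
tfb1 upstream (chrI:3522380-3522409, minus strand): aaagactagcggtgtattcCAcaactacca
oga1 upstream (chrII:4283909-4283938, plus strand): acacacacaattaactttcCAgcttccaaa
rps3 upstream (chrII:4239330-4239359, minus strand): agaccctttgaagttttgaCAcaaacccat

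The pyrimidine-purine step was present at 610 of the 1023 downstream peaks (59.6%, 95% exact binomial interval 56.5 to 62.7). It was present at 97.1% of the partners' peaks, at 85.2% of the downstream peaks of the other 3441 pairs and at 85.1% of all clusters. At 367 members (35.9%, interval 32.9 to 38.9) the base before the peak was a G, against 1.47% of partners, 11.6% of the other pairs and 11.5% of all clusters. The remaining 46 members had neither. The split at G was made after the sequences had been seen.

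The position in the gene went with the kind of step. Of the members, 738 peaks lay in a coding exon, 116 in a 5′ UTR, 69 in an intron, 44 in a noncoding gene or pseudogene, 28 outside annotated features, 14 at most 100 bp from an mRNA 5′ end in the annotation, 9 antisense to a coding gene and 5 in a 3′ UTR. Closeness to an mRNA 5′ end was judged first, so those 14 could also lie in an exon or an intron. Coding exons and 5′ UTRs together held 854 (83.5%), and 891 of the partners lay that close to an mRNA 5′ end. In 980 pairs both clusters were assigned to the same locus. In coding exons the step was pyrimidine-purine at 49.3% of members and G at 45.9%, close to the 48.1% and 47.3% over all 2632 coding-exon clusters. In 5′ UTRs the pyrimidine-purine share was 83.6%, and in introns it was 97.1% with 1 of 69 members at a G. The 69 intron members were most of the 123 intron clusters in the whole list, and 11 members lay within 3 bp of an annotated splice acceptor.

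**Figure D1:**
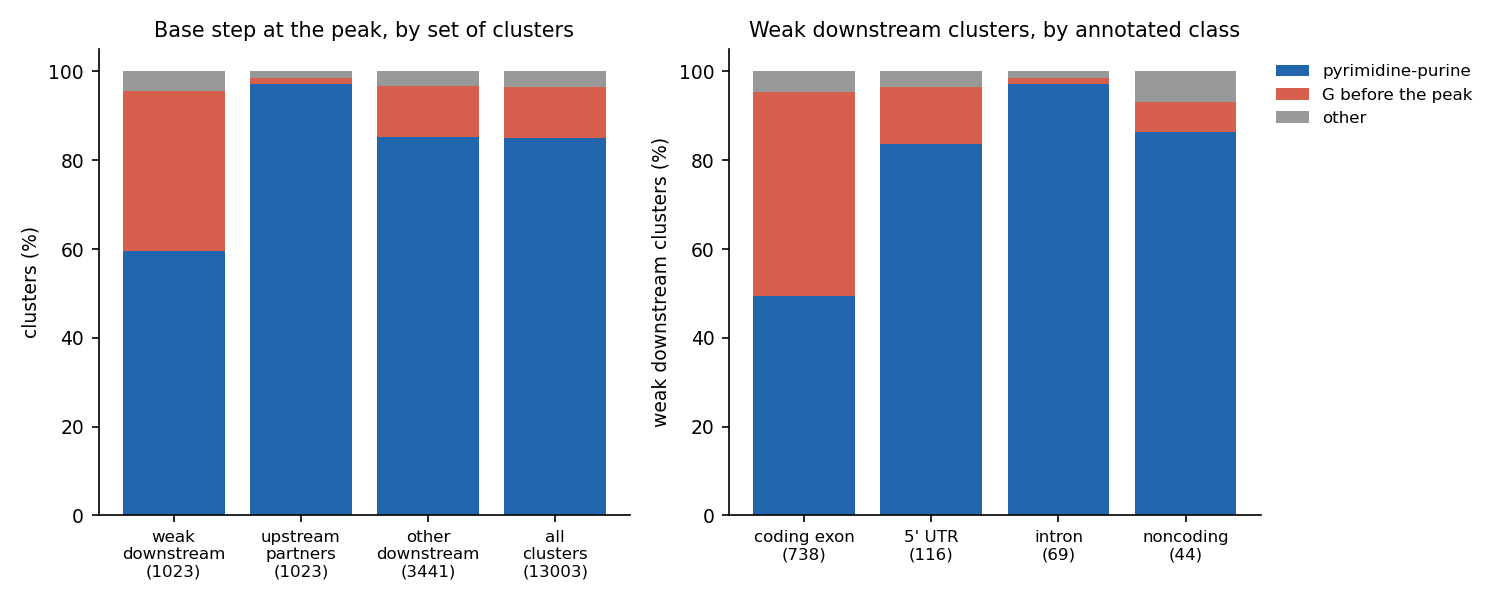
Stacked bars give the percent of clusters with each base step at the peak; the left panel compares the 1023 weak downstream clusters with their partners, the downstream clusters of the other 3441 pairs and all 13003 clusters, and the right panel splits the weak clusters by annotated class, with the number in each below the bar. A G before the peak made up 35.9% of weak downstream clusters and 45.9% of those in coding exons, and 1.47% of partners.

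The letters around the G-type peaks were uneven beyond the G that defined them. In the 339 coding-exon members of this kind, the second base before the peak was also a G in 60.2% and the third base before it in 54.6%. Over all 232912 G in the coding regions of the same 734 genes, the corresponding shares were 19.9% and 17.1%. The base 3 positions after the peak was an A in 67.8%, against 31.1% for the coding-region G. The peak lay on the second base of a codon in 55.2%, against 49.0% of the bases that follow a G in these coding regions. The rps3, pgr1 and lat1 sequences printed above have a G at the second base before the peak, and oga1 does not.

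Distances from the upstream peak differed between the kinds. Over all members the peaks were a median of 335 bp apart (quartiles 237 and 452), and the clusters themselves were separated by 20 bp or more, with 368 gaps under 30 bp. Peaks with the pyrimidine-purine step were piled up at certain distances. Per 25 bp of distance there were 47.0 such members at 150 to 200 bp, 28.3 at 200 to 275 bp, 50.7 at 275 to 350 bp and 23.3 at 350 to 600 bp. The pyrimidine-purine clusters of the other pairs had 237, 160, 179 and 108 per 25 bp over the same windows, also with fewer at 200 to 275 bp than on either side. The G-type members had 8.5, 24.0, 18.7 and 21.3 and no such dip. Within coding exons the pyrimidine-purine members numbered 50, 43 and 102 in the first 3 of these windows, which are 50, 75 and 75 bp wide. These windows were drawn after the distances had been seen.

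**Figure D2:**
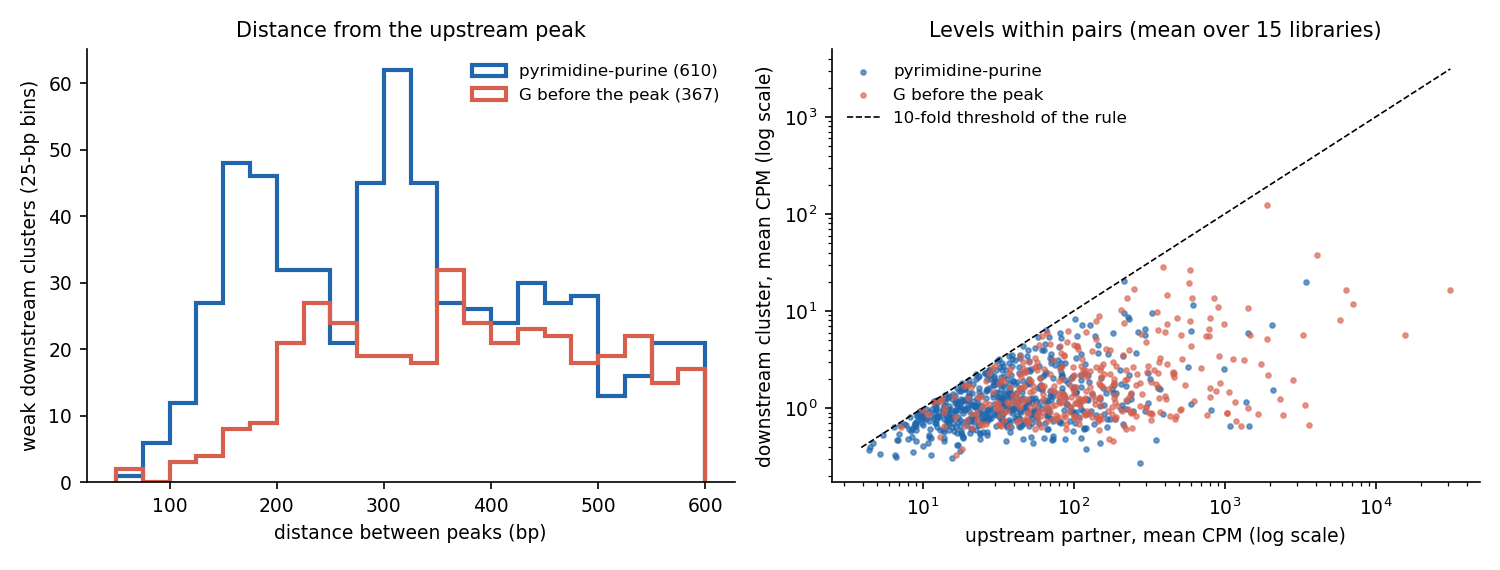
The left panel counts weak downstream clusters in 25-bp bins of distance (bp) from the upstream peak, for the 610 members with the pyrimidine-purine step and the 367 with a G before the peak; the right panel plots each downstream cluster's mean CPM against its partner's on log axes, with the 10-fold threshold of the rule dashed. The pyrimidine-purine members show a maximum of 62 at 300 to 325 bp and a lower one of 48 at 150 to 175 bp, with 21 at 250 to 275 bp between them.

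In coding exons, an RNA starting at the member would meet a first ATG in frame with the annotated protein in 174 of 738 cases (23.6%) and out of frame in 561 (76.0%), and in 3 the first ATG lay past the coding region. The in-frame share was 23.9% for the pyrimidine-purine step and 23.6% for the G step. The sds22 cluster, 202 bp past the annotated start codon, is one with an in-frame ATG, 9 bases past its peak. TATAAA, read on either strand from 45 to 20 bases before the peak, was present at 6.89% of pyrimidine-purine members, 1.09% of G members, 8.31% of partners and 6.92% of all clusters.

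By the rule the members were weak, and their levels are given as a description. The median member had a mean of 1.16 CPM (range 0.273 to 124.8) and the median partner 51.3 CPM, and the median fold between them was 36.5 (10.04 to 5445). G members had partners with a median of 110.4 CPM and pyrimidine-purine members 34.5 CPM, while the members themselves had medians of 1.41 and 1.03 CPM. Just inside the threshold were med20 (2.23 against 22.4 CPM, 10.04-fold) and SPBC1685.17 (3.17 against 31.9 CPM, 10.05-fold), and just outside it were peg1 (1.42 against 14.2 CPM, 9.96-fold) and fpb26 (2.78 against 27.6 CPM, 9.92-fold). The 10-fold difference held in the mean of every group for 766 pairs (74.9%) and in 1 group alone for 16. Every cluster in the list reached 1 CPM in at least 3 libraries. A member that reached 1 CPM in libraries of 1 group alone (108 in N_starved, 42 in heat, 20 in H2O2, 2 in EMM and 2 in YES) therefore had to be high there, and in the same way a pair could pass the 10-fold rule through a group in which the partner was high. The counts of changed members below, and the named changes with their p-values, are to be read with that.

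The 6 strongest members lay in coding exons downstream of highly expressed 5′ ends. The strongest was in oga1, which encodes a protein annotated as Stm1. Its downstream cluster had 151, 181 and 149.6 CPM in EMM and 23.2, 25.2 and 18.9 CPM in N_starved, and its partner 2631, 2549 and 2109 CPM in EMM and 896, 978 and 901 CPM in N_starved. Both fell in starvation with no overlap between the groups, and the downstream cluster fell further, so that the log2 downstream-to-upstream ratio changed by -1.46 ± 0.27 (SE, edgeR adjusted p = 4.01e-05). In YES, H2O2 and heat the oga1 downstream cluster stayed between 130.2 and 193 CPM. It held 6.02% of all member tags, and the 10 strongest members held 15.8%.

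The ribosomal protein gene rps3 had 46.1, 30.1 and 31.1 CPM downstream in EMM and 12.5, 8.85 and 10.9 CPM in N_starved. Its partner had 3228, 5605 and 4633 CPM in EMM and 1264, 1583 and 694 CPM in N_starved. Both members of the pair were lower in starvation, and the ratio change of 0.27 ± 0.48 did not pass the threshold (edgeR adjusted p = 0.69). In pgr1, the glutathione reductase gene, the downstream cluster had 28.96, 21.9 and 35.2 CPM in YES and 47.9, 49.5 and 43.9 CPM after H2O2, while the partner had 389.7, 334 and 436 CPM in YES and 713, 517 and 583 CPM in H2O2. Neither pair of groups overlapped, and the ratio did not pass the threshold (change 0.10, edgeR adjusted p = 0.912). In pst1, which encodes a subunit of histone deacetylase complexes, the downstream cluster had 11.4, 11.8 and 8.99 CPM in EMM and 52.7, 49.2 and 54.4 CPM in N_starved, and the partner 197, 172 and 162 CPM in EMM and 333, 330.1 and 423 CPM in N_starved. This cluster has the pyrimidine-purine step, and its ratio rose by 1.26 ± 0.24 (SE, edgeR adjusted p = 5.11e-05). The other strong members were in lat1, for a pyruvate dehydrogenase subunit, and hom2, for aspartate semialdehyde dehydrogenase.

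The question of each contrast was whether a downstream cluster moved with its partner. The test therefore compared the downstream-to-upstream ratio within each library between groups (edgeR quasi-likelihood, Benjamini-Hochberg adjustment over all 4464 pairs, threshold 0.05), in which library scaling cancels. The level of each cluster was tested in a separate fit over all 13003 clusters.

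In nitrogen starvation against EMM, 171 members had a higher ratio and 226 a lower one (38.8%), where 46.7% of all 4464 pairs were called (18.7% higher and 28.0% lower). The median log2 ratio change was -0.19 over the members and -0.23 over all pairs. Among the 171 rises the downstream cluster itself was higher in 123 and the partner lower in 79. Among the 226 falls the downstream cluster was lower in 132 and the partner higher in 116. By level alone, 236 members were higher and 371 lower (59.3%), where 66.9% of all clusters were called (36.5% higher and 30.3% lower). With library totals in place of TMM the median of all clusters moved by 0.48 on the log2 scale, and the share of called members that were higher went from 38.9% to 61.8%, so the direction of the levels in this contrast depends on the scaling and that of the ratio does not.

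Among the largest rises in starvation were those in sds22, pkr1 and prs5. In sds22 (chrI:2574156-2574341), which encodes a regulatory subunit of protein phosphatase 1, the downstream cluster had 0.292, 0 and 0.0511 CPM in EMM and 1.54, 2.31 and 2.29 CPM in N_starved. Its partner had 37.99, 26.6 and 29.2 CPM in EMM and 15.8, 12.3 and 17.4 CPM in N_starved. The EMM values were 4, 0 and 1 tags, all starved libraries were above them, and the log2 ratio rose by 5.24 ± 0.51 (SE, edgeR adjusted p = 3.97e-10). Without EMM library 1 the rise was 6.71.

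In prs5 (chrII:1280953-1281124), for an enzyme that makes phosphoribosyl pyrophosphate, the downstream cluster lay in an intron. It had 0.510, 0.244 and 0.613 CPM in EMM and 13.8, 11.4 and 15.6 CPM in N_starved, and it stayed at or under 0.320 CPM in every YES, H2O2 and heat library. The cluster thus reached 1 CPM in N_starved alone, and its place in the list rested on that group. The partner had 147, 179 and 155 CPM in EMM and 226, 202 and 202 CPM in N_starved, and the ratio rose by 4.46 ± 0.33 (SE, edgeR adjusted p = 9.64e-13). In pkr1, for an assembly factor of the vacuolar proton pump, the downstream level went from 0.161 ± 0.0197 CPM (SD, n = 3) to 2.15 ± 0.187 CPM and the partner from 77.1 ± 0.455 CPM to 36.01 ± 2.23 CPM. Its ratio rose by 4.77 ± 0.40 (SE, edgeR adjusted p = 1.57e-11). The downstream clusters of sds22 and pkr1 also reached 1 CPM in N_starved alone, and their place in the list rested on that group.

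In the 4 named falls in starvation the partner rose in level, and in 3 of them the downstream cluster rose too, but by less. In SPAPJ691.02, which encodes a yippee-like protein, the partner had 7.15, 8.36 and 7.87 CPM in EMM and 226, 503 and 918 CPM in N_starved, and the 5′ UTR cluster 1.24, 0.793 and 0.869 CPM in EMM and 4.13, 3.07 and 3.84 CPM in N_starved. The ratio changed by -3.98 ± 0.48 (SE, edgeR adjusted p = 1.94e-07), and by -4.63 without N_starved library 1. The 10-fold difference held in N_starved alone, so the rule picked this pair through the group in which its ratio fell. In the noncoding gene SPNCRNA.1443 the partner had 1.604, 0.976 and 1.12 CPM in EMM and 36.5, 48.9 and 378 CPM in N_starved. Its N_starved library 3 stood far above the others, and the log2 ratio change of -5.21 became -4.54 without it. The 10-fold difference of SPNCRNA.1443 also held in N_starved alone. An unannotated pair on chromosome III (downstream peak at 1515997) had a partner at 1.82, 2.01 and 1.33 CPM in EMM and 145, 141 and 111 CPM in N_starved, with the downstream cluster at 1.24, 0.732 and 1.12 CPM in EMM and 3.31, 3.18 and 3.18 CPM in N_starved. Both rose, and the partner rose more (ratio change -4.63 ± 0.39 SE, edgeR adjusted p = 1.87e-11).

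**Figure D3:**
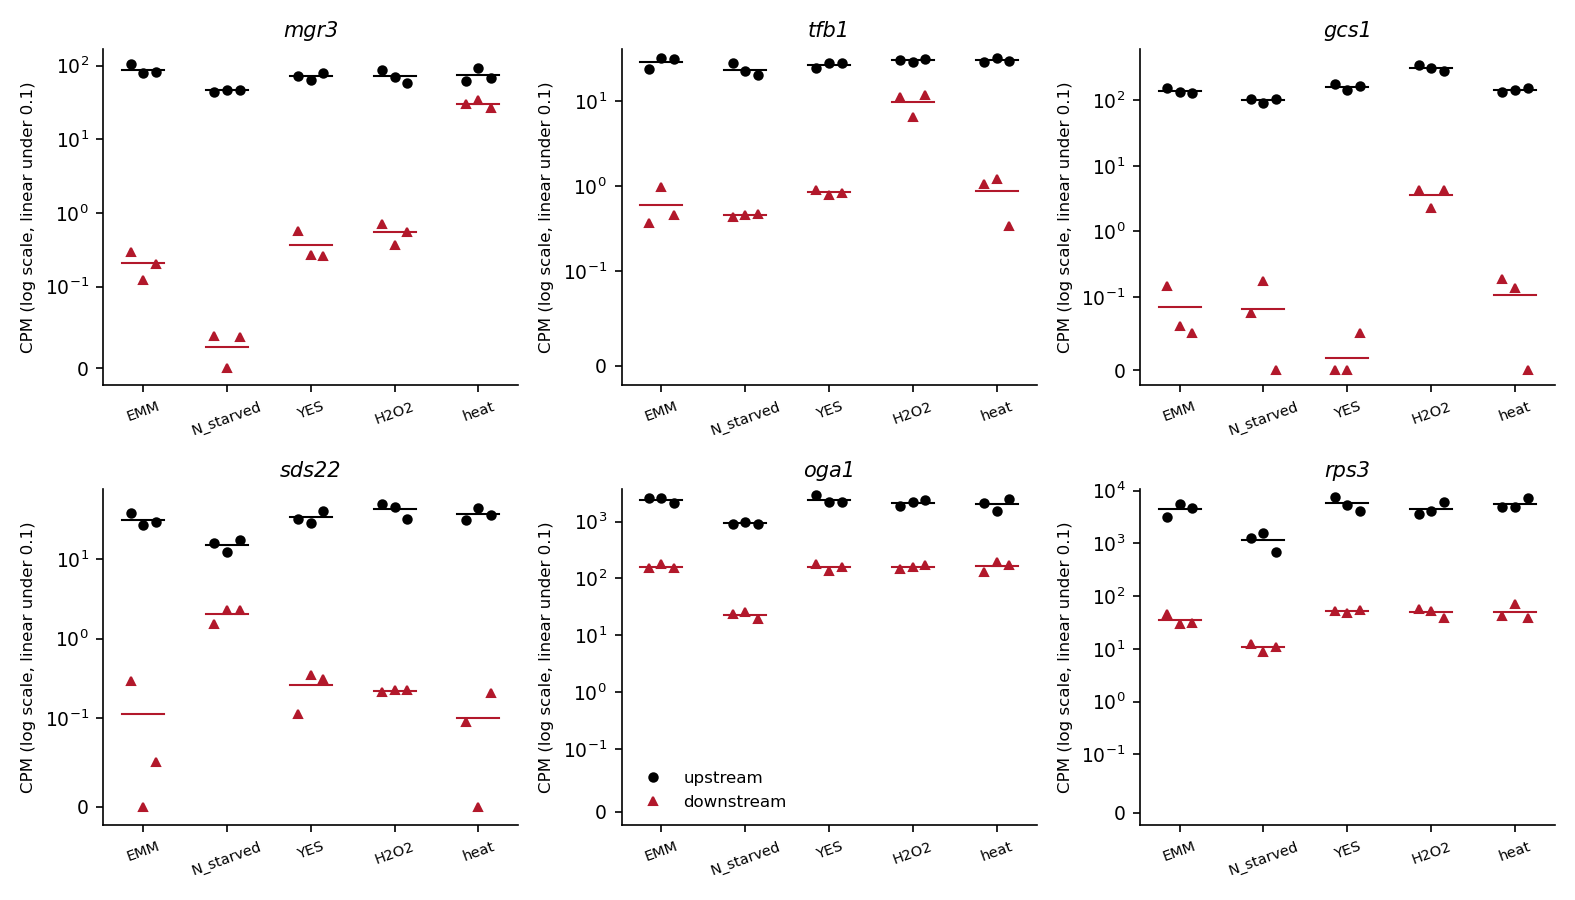
CPM of the downstream cluster (triangles) and its upstream partner (circles) in each of 3 libraries of the 5 groups, with a line at the mean, on an axis that is logarithmic above 0.1 CPM and linear below. In mgr3, tfb1, gcs1 and sds22 the downstream cluster is high in 1 group only (heat, H2O2, H2O2 and N_starved, in that order), whereas in oga1 and rps3 both clusters are lower in N_starved.

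After heat, 114 members had a higher ratio than in YES and 49 a lower one (15.9%), where 20.1% of all pairs were called (12.4% higher and 7.73% lower). The downstream cluster itself was higher in 82 of the 114, and in 58 of these the partner was not called in either direction. By level, 169 members were higher and 80 lower (24.3%), where 33.6% of all clusters were called (18.2% higher and 15.4% lower). With library totals the median of all clusters moved by -0.17 and the share of called members that were higher went from 67.9% to 51.7%.

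Among the 4 named rises in heat, the highest downstream level was in mgr3 (chrI:1611930-1612150), for a protein with tetratricopeptide repeats. Its downstream cluster, in a coding exon 549 bp past the partner's peak, had 0.570, 0.265 and 0.256 CPM in YES and 30.5, 33.9 and 26.4 CPM after heat. The partner had 72.9, 64.4 and 78.4 CPM in YES and 62.2, 91.5 and 68.3 CPM in heat. The downstream groups were far apart and the partner's overlapped, and the log2 ratio rose by 6.46 ± 0.33 (SE, edgeR adjusted p = 3.36e-16). In EMM, N_starved and H2O2 the highest mgr3 downstream value was 0.716 CPM. The cluster thus reached 1 CPM in heat alone, and its place in the list rested on that group.

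In vps26, for a subunit of the retromer complex, the downstream cluster had 0, 0.0884 and 0.0513 CPM in YES, 2 tags in all, and 6.04, 5.17 and 5.48 CPM after heat. The heat level was 109-fold the YES level, with a 95% counting interval of 29.8 to 907. Its partner had 13.00, 11.3 and 16.3 CPM in YES and 20.99, 19.99 and 22.1 CPM in heat, and the ratio passed the threshold (edgeR adjusted p = 6.47e-11). In pbn1, for a protein of glycolipid anchor synthesis, the downstream cluster lay in an intron and had 2 tags in all in YES and 3.16, 4.42 and 3.02 CPM after heat. This was a 70.7-fold difference with a counting interval of 19.2 to 590 (edgeR adjusted p of the ratio = 6e-09), while the partner had 9.12, 12.5 and 10.9 CPM in YES and 9.30, 9.52 and 9.46 CPM in heat. In rps1801, a ribosomal protein gene, the downstream peak lay at most 100 bp from the annotated mRNA 5′ end. It was 51 bp past the annotated start codon, and this class does not tell whether it lay in an exon or an intron. No tag was seen downstream in any YES library, and the heat libraries had 2.88, 3.26 and 4.25 CPM. Against a floor of 3 counts per library heat gave at least 13.7-fold higher downstream CPM (adjusted p of the ratio by edgeR = 1.98e-07), and the partner's values in YES and heat overlapped. The downstream clusters of vps26, pbn1 and rps1801 reached 1 CPM in heat alone, and their place in the list rested on that group.

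The partner rose in each of the 4 named falls in heat, and the downstream cluster rose in ssd2 and was not called in the other 3. In SPNCRNA.1289, a noncoding gene, the partner had 5.82, 2.92 and 4.31 CPM in YES and 166, 178 and 209 CPM after heat, and the downstream cluster 2.28, 3.36 and 3.79 CPM in YES and 4.22, 5.17 and 4.46 CPM in heat. The ratio changed by -4.93 ± 0.33 (SE, edgeR adjusted p = 2.66e-13). The 10-fold difference held in heat alone, so the rule picked this pair through the group in which its ratio fell. In ssd2, for succinate-semialdehyde dehydrogenase, the partner went from 10.2 ± 0.924 CPM in YES to 345 ± 72.98 CPM after heat and 232 ± 70.2 CPM after H2O2, and the 5′ UTR cluster from 0.602 ± 0.193 CPM to 2.71 ± 0.588 CPM and 3.88 ± 0.352 CPM. In tas3, for a subunit of the RITS silencing complex, the partner had 18.4, 18.6 and 16.5 CPM in YES and 53.5, 53.2 and 59.8 CPM after heat. The tas3 downstream cluster had 3.65, 3.005 and 2.41 CPM in YES and 2.40, 3.13 and 3.36 CPM in heat, which overlap, and the ratio changed by -1.63 ± 0.28 (SE, edgeR adjusted p = 4.41e-05). In SPACUNK4.15, for a nucleotide phosphodiesterase, the partner rose and the downstream groups overlapped (ratio change -1.63 ± 0.29 SE, edgeR adjusted p = 7.1e-05).

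The sequence GAANNTTC, which reads the same on both strands and is part of the element bound by heat shock factor, occurred in the 250 bases before the peak of 26 of the 114 members whose ratio rose in heat (22.8%, interval 15.5 to 31.6). It occurred before 12.2% of all members, 9.78% of partners and 10.7% of all clusters, before 9.94% of the members whose ratio rose in starvation and before 4 of the 34 that rose after H2O2 (11.8%, interval 3.30 to 27.5). The longer heat shock element of 3 such units, searched on both strands, occurred before 4 of the 114 (3.51%, interval 0.964 to 8.74), 0.880% of all members and 0.608% of all clusters. TGACGT, part of the element bound by Atf1-type factors and read on both strands, occurred before 2.63% of the members that rose in heat, 2.34% in starvation and 5.88% after H2O2, against 4.59% of all members and 5.52% of all clusters. GAANNTTC was found before none of the 4 named members (rps1801, mgr3, pbn1 and vps26; 0 matches each).

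After H2O2, 34 members had a higher ratio and 20 a lower one (5.28%), where 7.5% of all pairs were called (4.32% higher and 3.18% lower). The downstream cluster was higher in 25 of the 34. By level, 71 were higher and 20 lower (8.90%), where 15.4% of all clusters were called (9.43% higher and 5.95% lower). In tfb1 (chrI:3521594-3522005), for a subunit of the general transcription factor TFIIH, the coding-exon cluster had 0.912, 0.795 and 0.820 CPM in YES and 11.02, 6.50 and 11.6 CPM after H2O2. Its partner had 24.5, 27.7 and 27.7 CPM in YES and 30.4, 29.1 and 31.3 CPM in H2O2, and the ratio rose by 3.32 ± 0.34 (SE, edgeR adjusted p = 9.92e-09). The downstream cluster had at most 1.22 CPM in every other library.

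In gcs1 (chrI:684093-684180), for glutamate-cysteine ligase, which catalyses the first step of glutathione synthesis, the intron cluster had 1 tag in all in YES and 4.22, 2.26 and 4.35 CPM after H2O2. This was a 139-fold difference with a 95% counting interval of 24.7 to 5528 (edgeR adjusted p of the ratio = 1.02e-06). The partner also rose, from 178, 142 and 163 CPM in YES to 349, 306 and 282 CPM after H2O2 (log2 change 0.96, edgeR adjusted p = 4.55e-05). In tup12, for a corepressor, the downstream cluster had 0.342, 0.265 and 0.359 CPM in YES and 3.51, 2.21 and 4.21 CPM after H2O2, without overlap, and the ratio rose by 2.83 ± 0.44 (SE, edgeR adjusted p = 1.91e-05). An unannotated cluster on chromosome III (peak at 170383) had no tag in any YES library and 2.65, 1.80 and 3.16 CPM after H2O2, which against the same floor was at least 10-fold higher (adjusted p of the ratio by edgeR = 9.8e-06). The gcs1 cluster and this unannotated one reached 1 CPM in H2O2 alone, and their place in the list rested on that group.

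Among the falls, srx1 encodes sulfiredoxin, which repairs oxidised peroxiredoxin. Its partner had 14.7, 13.8 and 17.3 CPM in YES and 1140.4, 978 and 1208 CPM after H2O2, and the cluster 169 bp downstream 0.798, 0.0884 and 0.256 CPM in YES and 5.58, 5.59 and 4.30 CPM in H2O2. Both rose without overlap and the ratio changed by -2.23 ± 0.61 (SE, edgeR adjusted p = 0.0178). That call was lost without YES library 1 (edgeR adjusted p = 0.394). The falls of ssd2 and mug35 were lost without YES library 3 (edgeR adjusted p = 0.213 and 0.0644), and that of ccs1, for the copper chaperone of superoxide dismutase, without H2O2 library 3 (0.0805).

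Between the unstressed media, EMM against YES, 21 members had a higher ratio and 41 a lower one (6.06%), where 9.97% of all pairs were called (5.51% higher and 4.46% lower). The count of called members fell to 40 without EMM library 2 and to 38 without EMM library 3. By level, 20 members were higher and 34 lower (5.28%), where 13.7% of all clusters were called (5.98% higher and 7.74% lower). With library totals 15 were higher and 50 lower. Levels were called for 35 without EMM library 2, 32 without EMM library 3 and 33 without YES library 3.

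Among the named pairs, SPNCRNA.1532 had the largest rise. Its downstream cluster had 4.16, 3.66 and 4.14 CPM in EMM and 1 tag in all in YES, a 158-fold difference with a 95% counting interval of 28.0 to 6264, and 0.866, 0.231 and 0.620 CPM in N_starved. The partner had 4.23, 2.87 and 4.75 CPM in EMM, 9.81, 8.75 and 10.8 CPM in YES and 9.92, 10.2 and 10.04 CPM in N_starved. In EMM the pair was therefore near balance, and in the other groups the upstream cluster held nearly all tags. The place of this downstream cluster in the list rested on EMM, the only group in which all 3 libraries reached 1 CPM. An unannotated pair on chromosome III (downstream peak at 818268) was lower in EMM at both clusters, and more so upstream. Its partner had 14.7, 8.42 and 7.05 CPM in EMM and 566, 870.4 and 683 CPM in YES, and the downstream cluster 1.39, 1.28 and 1.64 CPM in EMM and 8.10, 9.90 and 8.77 CPM in YES (ratio change 3.58 ± 0.38 SE, edgeR adjusted p = 1.44e-08). In isa1, for an iron-sulphur cluster protein, the intron cluster had 5.10, 3.54 and 4.50 CPM in EMM and 0.798, 1.502 and 0.410 CPM in YES, with an overlapping partner, and the ratio rose by 2.51 ± 0.38 (SE, edgeR adjusted p = 8.31e-06). The isa1 change was 3.13 without YES library 2 and 1.90 without YES library 3. In ugp1, for an enzyme that makes UDP-glucose, the downstream cluster had 2.99, 2.81 and 2.81 CPM in EMM and 0.570, 0.442 and 0.769 CPM in YES (ratio change 1.76 ± 0.39 SE, edgeR adjusted p = 0.00177).

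Among the named pairs, the largest fall in EMM was in SPBC23G7.13c, for a urea transporter. Its partner had 0.570, 0.353 and 0.667 CPM in YES, 64.6, 77.4 and 76.3 CPM in EMM and 460.4, 336 and 356 CPM in N_starved, and the downstream cluster 0.798, 0.707 and 0.564 CPM in YES, 4.74, 4.27 and 4.39 CPM in EMM and 4.33, 3.41 and 3.37 CPM in N_starved. The 10-fold difference was thus a property of EMM and N_starved, and the ratio change was -4.29 ± 0.46 (SE, edgeR adjusted p = 1.65e-08). In sdg1, for an acetylase, the partner overlapped between media and the downstream cluster went from 9.69, 9.19 and 12.3 CPM in YES to 2.48, 2.81 and 2.91 CPM in EMM (ratio change -1.93 ± 0.30 SE, edgeR adjusted p = 1.37e-05). In SPBPB7E8.01, which encodes an uncharacterised protein, the ratio changed by -2.01 ± 0.27 (SE, edgeR adjusted p = 1.5e-06). The noncoding gene rse1, a repressor of ste11, also fell (ratio change -1.54 ± 0.28 SE, edgeR adjusted p = 0.000156), and with a near copy of its downstream start elsewhere in the genome, tags could be shared between the copies.

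Across all 4 contrasts the kinds of start site differed in how often the ratio was called. In starvation 48.4% of pyrimidine-purine members and 22.3% of G members were called, where 46.7% of all pairs were called. In heat the shares were 23.4% and 3.0%, after H2O2 7.21% and 1.91%, and in EMM against YES 8.36% and 2.18%. Of all pairs, 20.1% were called in heat, 7.5% after H2O2 and 9.97% in EMM against YES. G members had the higher median level, 1.41 against 1.03 CPM. Among members with a mean of at least 2 CPM the shares were 53.6% and 21.9% in starvation and 37.3% and 1.56% in heat. Of all pairs with a downstream mean of at least 2 CPM, 55.6% were called in starvation and 25.8% in heat. Within coding exons alone the shares of members were 45.6% and 20.6% in starvation, and 23.1% and 2.95% in heat. In heat 6 of 367 G members had a higher ratio and 5 a lower one. This split was chosen with the data in view, and the difference between the kinds was not tested.

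By level, 187 of the 367 G members were lower in starvation and 41 higher, against 171 and 185 of the 610 pyrimidine-purine members. Of all clusters, 30.3% were lower and 36.5% higher, and the direction of the levels in this contrast depends on the scaling, as given above. Across members, the log2 change of the downstream cluster and of its partner had a Pearson correlation of 0.81 for G members and 0.53 for pyrimidine-purine members in starvation, 0.78 and 0.45 in heat, 0.62 and 0.46 after H2O2, and 0.64 and 0.22 in EMM against YES (n = 367 and 610 members, which share the same libraries). With means of at least 2 CPM the correlations were 0.83 and 0.49 in starvation and 0.83 and 0.41 in heat.

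**Figure D4:**
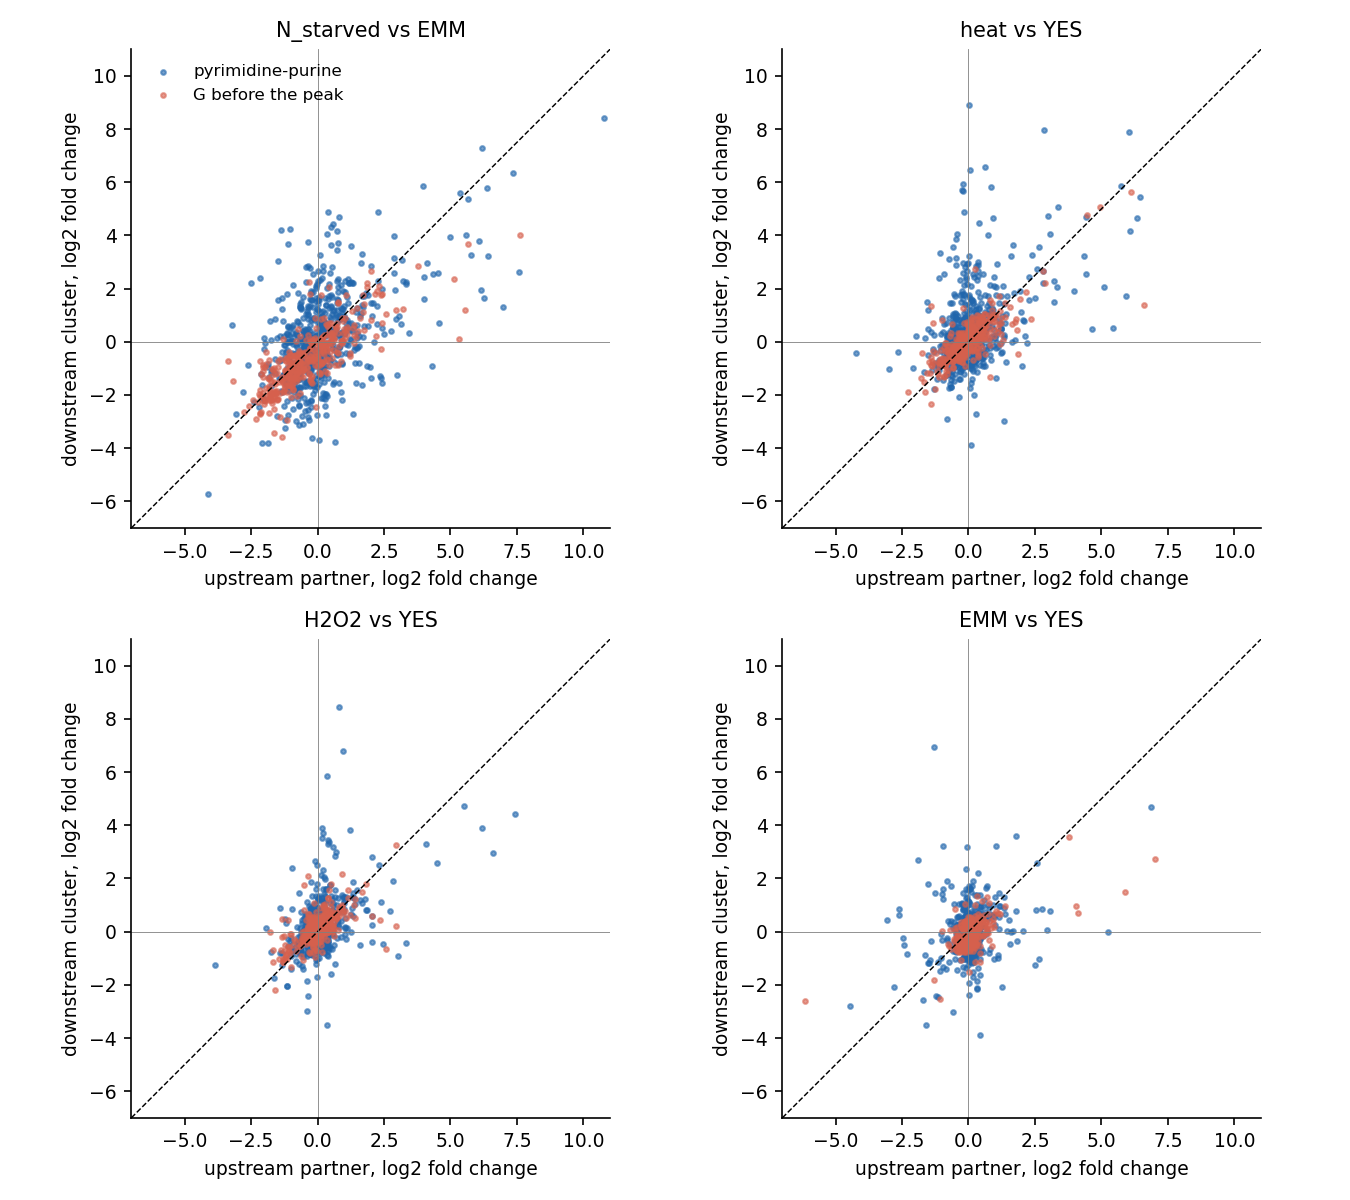
Each point is a pair, with the log2 fold change of the upstream partner on the horizontal axis and of the downstream cluster on the vertical axis, in 4 contrasts; blue marks the pyrimidine-purine step, red a G before the peak, and the dashed line equal change. The changes of both clusters were correlated more closely in red pairs (0.81 in starvation and 0.78 in heat) than in blue ones (0.53 and 0.45), and blue points above it at an upstream change near 0 are members that rose while their partner did not.

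The share of members with a called ratio varied between annotated classes, and the difference between classes was not tested. In starvation 28 of 69 intron members had a higher ratio and 12 a lower one (58.0%), where 46.7% of all pairs were called. The counts were 98 and 151 of 738 in coding exons (33.7%) and 22 and 38 of 116 in 5′ UTRs (51.7%). They were 12 and 12 of 44 in noncoding genes (54.5%) and 2 and 4 of 9 antisense members (66.7%). In heat 13 intron members were higher and 5 lower (26.1%), in coding exons 71 and 24 (12.9%), in 5′ UTRs 20 and 10 (25.9%), in noncoding genes 5 and 6 (25%) and antisense 1 and 1 (22.2%), where 20.1% of all pairs were called. The transcription factor gene atf1, which acts in the stress response, had such an intron cluster. It had 3.65, 2.30 and 3.79 CPM in YES and 2.59, 3.94 and 4.39 CPM after heat, and its partner 119, 123 and 76.04 CPM in YES and 310.3, 213 and 288 CPM in heat, a ratio change of -1.22 ± 0.35 (SE, edgeR adjusted p = 0.00989). In starvation the atf1 ratio changed by 0.91 ± 0.31 (SE, edgeR adjusted p = 0.0173), a call that was lost with limma (adjusted p = 0.0643).

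Members were found in few genes of most pathway lists, which were chosen with earlier results of these data known. The other lists held 10 to 27 genes, whereas ribosomal protein genes were taken from the pairs themselves, so no share of that family is given. Ribosomal protein genes had the most, 28 pairs, of which 24 had a G before the peak. The partners of these pairs had a median log2 change of -1.93 in starvation and the members -1.69, with 22 of 28 members lower in level and 0 higher by edgeR, where 30.3% of all clusters were lower and 36.5% higher. The ratio was higher in 5 (rpl2401, rpl2402, rpl502, rpl802 and rps2402) and lower in 1 (rpl401), where 18.7% of all pairs were higher and 28.0% lower. With limma the calls of rpl2401 and rps2402 were lost (adjusted p = 0.129 and 0.11). Under heat 2 were higher, rps1801 and rps802, and the lower one was a cluster antisense to chl1 that lies downstream of rpl4101. With limma the calls of rps802 and of the antisense cluster were lost (adjusted p = 0.053 and 0.0801). After H2O2 edgeR called 0 of 28 ratios and limma 0, with 5 at an unadjusted p under 0.05, and for EMM against YES edgeR called 0 and limma 0, with 1 at an unadjusted p under 0.05. The 3 translation elongation factor genes tef101, tef102 and tef103 had a member each, all G-type, with ratio changes in starvation of -0.28 to 0.21, with 0 of 3 called by edgeR or limma and 0 at an unadjusted p under 0.05, while the partners' median change was -1.76. All 3 of these members, and 11 of the 28 ribosomal protein members (rpl502, rpl802, rpl401 and rps802 among those called), have a near copy of the downstream start elsewhere in the genome, so their tags could be shared.

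Of the oxidative defence list 6 of 19 genes had a member: ccp1, gcs1, gnd1, pgr1, sod2 and srx1. After H2O2 the level of 4 was higher and of 0 lower, where 9.43% of all clusters were higher and 5.95% lower. The ratio was higher in gcs1 and lower in srx1, where 4.32% of all pairs were higher and 3.18% lower. In starvation the ratio of sod2, for mitochondrial superoxide dismutase, rose by 1.04 ± 0.29 (SE, edgeR adjusted p = 0.00363) with both clusters higher, and in heat that of gnd1, for an enzyme of the pentose phosphate pathway, rose by 1.54 ± 0.44 (SE, edgeR adjusted p = 0.0096), which limma did not call (adjusted p = 0.0554). The ratio fell in pgr1 in starvation (-0.65 ± 0.25 SE, edgeR adjusted p = 0.0298) and in srx1 in heat (-2.15 ± 0.70 SE, edgeR adjusted p = 0.0247), where the ratios of single libraries overlapped between the groups, and for EMM against YES edgeR and limma called 0 of the 6, with 0 at an unadjusted p under 0.05. Among chaperones there were 2 of 19 genes. The cluster in hsp16, for a small heat shock protein, had 0.228, 0.0884 and 0.154 CPM in YES and 6.33, 11.4 and 6.10 CPM after heat, and its partner 85.9, 58.9 and 65.6 CPM in YES and 4248, 5753 and 4500.5 CPM in heat. Both rose, and the hsp16 ratio changed by -0.54 (edgeR adjusted p = 0.712). In aha1, for a cochaperone of Hsp90, the intron cluster had 0.0729, 0.122 and 0.204 CPM in EMM and 0.118, 0.231 and 0.388 CPM in N_starved. These values overlap, most lie near the limit set by 3 tags, and the downstream level was not called. The partner fell from 432, 558 and 576 CPM in EMM to 173, 146 and 129 CPM in N_starved. The aha1 ratio rose by 2.61 ± 0.63 (SE, edgeR adjusted p = 0.000894), with few tags downstream in either group. Of the core stress list 3 of 13 genes had a member, and in starvation the edgeR ratio rose in atf1, as given above, and fell in pcr1 (-1.20 ± 0.44 SE, edgeR adjusted p = 0.0256). The member in tps1, for trehalose-6-phosphate synthase, had 2.17, 1.86 and 2.10 CPM in YES and 11.4, 14.6 and 12.4 CPM in heat, and its partner 54.05, 53.2 and 42.8 CPM in YES and 344, 341 and 351 CPM in heat. Both were higher after heat without overlap, and the tps1 ratio was not called (change -0.18, edgeR adjusted p = 0.754).

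Of the mating and nitrogen list 1 of 27 genes had a member, isp7. Its partner had 1.37, 2.39 and 2.31 CPM in YES, 40.9, 32.6 and 30.6 CPM in EMM and 373, 468 and 573 CPM in N_starved. The isp7 downstream cluster had 0.228, 0.530 and 0.718 CPM in YES, 1.31, 0.793 and 1.07 CPM in EMM and 6.81, 5.90 and 10.3 CPM in N_starved. The partner differed more than the downstream cluster in both steps, and the ratio was lower in EMM than in YES (-3.07 ± 0.46 SE, edgeR adjusted p = 8.98e-06) and in N_starved than in EMM (-0.92 ± 0.30 SE, edgeR adjusted p = 0.0112). Limma did not call the second of these (adjusted p = 0.0662). The 10-fold difference of isp7 held in EMM and N_starved and not in YES. The rule thus picked this pair through groups in which its ratio was lower than in YES. Of the list of wall, membrane and transport genes 2 of 11 had a member, exg1 and vph1. In exg1, for a glucanase of the cell wall, the downstream cluster had 1.02, 0.854 and 1.28 CPM in EMM and 8.46, 4.92 and 7.37 CPM in N_starved. The exg1 partner overlapped between these groups, and the ratio rose by 2.66 ± 0.42 (SE, edgeR adjusted p = 1.92e-05). Of the glycolysis and fermentation list 1 of 17 genes had a member, tdh1, for glyceraldehyde-3-phosphate dehydrogenase. The tdh1 partner had 43508, 38839 and 35062 CPM in EMM and 16753, 16635 and 18513 CPM in N_starved, and the downstream cluster 17.6, 17.2 and 16.8 CPM in EMM and 9.76, 6.02 and 8.14 CPM in N_starved. Both were lower in starvation, and the tdh1 ratio was not called in any contrast (0 of 4 by edgeR or limma, and 0 at an unadjusted p under 0.05), with a near copy of its downstream start in the genome.

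In 12 pairs the downstream cluster equalled or exceeded its partner in the mean of at least 1 group while reaching 1 CPM somewhere, and in 7 of them this held in all 3 libraries of a group with more than 3 tags in each. These pairs were picked by their values and carry no test. In shk2, a kinase gene, the partner had 51.7, 35.3 and 58.1 CPM in N_starved and 0.0958, 0 and 0.0685 CPM in heat, and the coding-exon cluster 213 bp downstream 0.827, 0.405 and 0.349 CPM in N_starved and 4.12, 5.03 and 4.93 CPM in heat. The stronger start of shk2 thus changed from upstream in starvation to downstream in heat. In SPNCRNA.1637 the partner had 109.5, 119.7 and 166 CPM in heat and 0.472, 0.405 and 0.388 CPM in N_starved, with 1.05, 1.43 and 0.822 CPM in heat and 0.945, 1.16 and 1.05 CPM in N_starved downstream. The others of the 7 were SPAPJ691.02 and SPBC1683.02 in heat, SPAC11D3.03c in H2O2 and heat, SPNCRNA.1443 in YES, H2O2 and heat, and SPNCRNA.1289 in EMM and N_starved.

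Summed over all pairs, downstream tags were 0.831%, 0.750% and 0.780% of pair tags in EMM and 1.08%, 1.05% and 1.20% in N_starved. The YES libraries had 0.748%, 0.804% and 0.888%. H2O2 libraries had 0.882%, 0.970% and 0.863%, and heat libraries 0.880%, 0.980% and 0.828%. The starved libraries lay above all EMM libraries, and the H2O2 and heat groups overlapped with YES. The share of the median pair went the other way in starvation, at 2.32%, 1.97% and 2.20% in EMM and 1.86%, 1.87% and 1.89% in N_starved. After heat the median share was 2.54%, 3.0% and 2.59%, above the 2.27%, 2.25% and 2.45% of YES. From the authors' log2 table the summed share was 0.547% in N_starved and 0.922% in EMM, so its order was reversed. No test was made of either share, because the members were chosen with results in view.

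**Figure D5:**
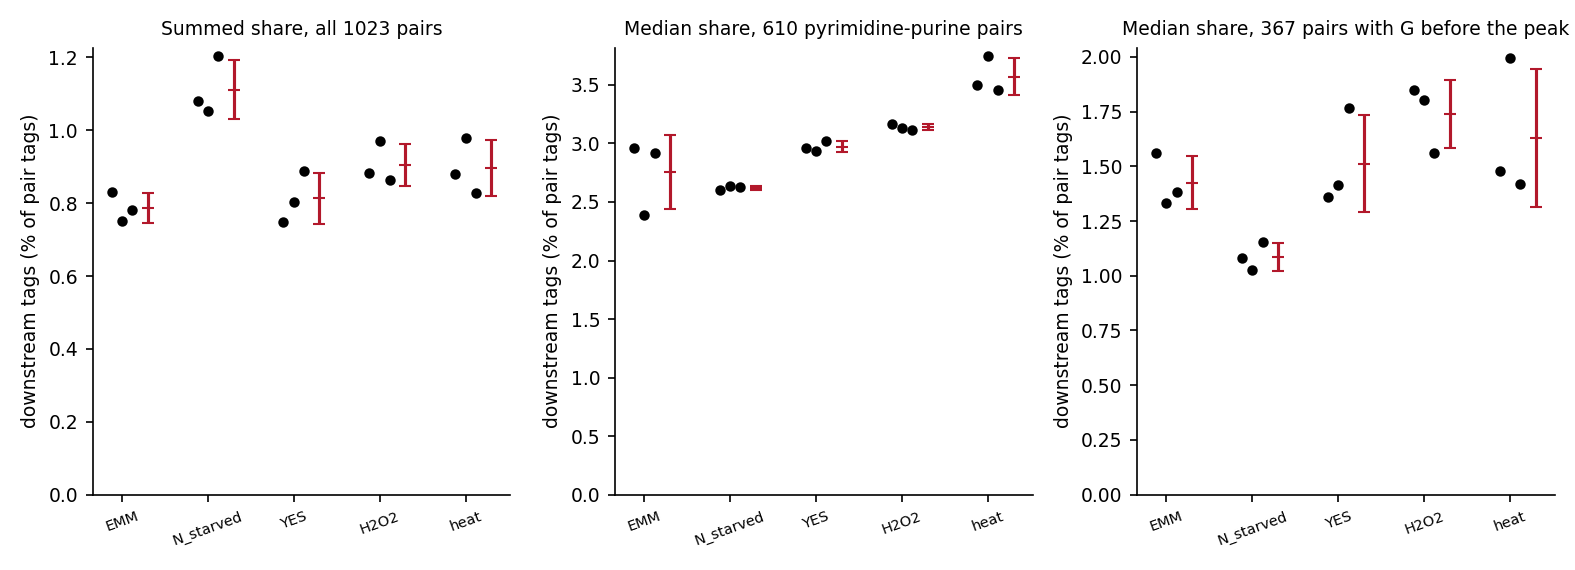
Downstream tags as a percent of the tags of both clusters in each of 3 libraries (points) of the 5 groups, with the mean and SD in red; the left panel sums over all 1023 pairs, and the others give the median pair with the pyrimidine-purine step (610) or with a G before the peak (367). The summed share is highest in N_starved (1.05% to 1.20%), whereas the median share of G pairs is lowest there (1.02% to 1.15%).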

How the data were processed

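CAGE tags were measured in 15 libraries, 3 for each of 5 growth conditions. Per the submitters' processing notes, CASAVA 1.6, Bowtie 0.12.7 and the build ASM294v2 were used; how tags were clustered, counted and normalised is not given in the sources used here. The authors deposited raw tag counts per cluster, a table of normalised log2 values, and a cluster list with the mean CPM over libraries in column 5. The deposited counts gave all tests. The log2 table served an alternative of the shares.

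The reference at hand was ASM294v3 (RefSeq). Its fit to the files' coordinates was checked with the pyrimidine-purine step: 85.1% of listed peaks had it, against 4.71% and 2.84% one base to either side, and at least 76.5% in each of 50 stretches of the genome.

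Ratios were tested with edgeR 4.0.16 (R 4.3.3) on 4464 pairs of neighbouring clusters, with a term for each library and for position by group; all 15 libraries shared 1 estimate of the spread. Levels were tested over 13003 clusters after TMM scaling. P-values were adjusted by Benjamini-Hochberg over all rows, with a threshold of 0.05; the low-count filter of edgeR removed no cluster. Both fits were tested on simulated data with 200 changed rows. Alternatives used limma 3.58.1, DESeq2 1.42.0, library totals, other limits of the rule, a replicate term and leaving out each library. Cultures were parallel, and nothing in the labels ties them to separate days, so p-values measure the spread between these samples.

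Named pairs were the 4 largest rises and 4 largest falls of the ratio per contrast, among called members with at least 30 tags in each library of 1 group and no overlap between groups, and the 6 strongest members. A pair chosen by this rule is not reported here. The members, lists and rules were chosen with earlier results of these data known. The motifs, distance windows, the split at G and the pairs that changed their stronger start were chosen after seeing the data. No columns were left unmatched. The authors' gene tables were not used here. Intervals and floors cover counting error only.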

Additional observations from a re-analysis of the deposited data

How the results depend on the processing

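Called members numbered 397, 163, 54 and 62 by ratio in N_starved against EMM, heat, H2O2 and EMM against YES, and 607, 249, 91 and 54 by level. With an upstream cluster at least 20 times higher (747 members), 259 were called in starvation and 35 in EMM against YES. With peaks 50 to 300 bp apart (399 members), the ratio counts were 149, 62, 17 and 18. Among members with a mean of at least 2 CPM (added after seeing the data; 247 members) they were 91, 46, 11 and 21 by ratio and 174, 64, 21 and 18 by level. These 3 settings hold fewer members by construction. Leaving out 1 library gave 319 to 374, 130 to 151, 39 to 47 and 38 to 61 by ratio, and 537 to 564, 186 to 218, 62 to 83 and 32 to 50 by level, in the same order. Counts with limma, DESeq2, library totals, no filter, only the 6 libraries compared, at least 5 times higher or no near copies stayed within 1.5 times.

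The replicate numbers did not pair the libraries: same-numbered libraries had correlations of their deviations between -0.17 and 0.20. With the replicate block the counts were 390, 158, 53 and 60 by ratio and 598, 245, 85 and 50 by level. Of 320 values recomputed for 32 named ratio results, 315 kept their call, 5 lost it and 0 changed sign. The lost ones were srx1, ssd2, mug35 and ccs1 after H2O2; srx1 was also lost with limma (adjusted p = 0.0654). With all libraries and edgeR their adjusted p-values were 0.0178, 0.00402, 0.00279 and 0.00655.

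The summed share from the authors' log2 table was 0.922% in EMM, 0.547% in N_starved, 0.938% in YES, 0.983% after H2O2 and 1.05% after heat; the cause was not tested. Without oga1 the EMM share was 0.731%. Leaving out 1 library gave 0.765% to 0.805%, 1.07% to 1.14%, 0.776% to 0.846%, 0.872% to 0.926% and 0.854% to 0.930%. The median member had 10 to 29 tags per library, and the smallest change that this depth allows to be called was not computed.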
